A study of Mus musculus with 4 samples.

Results

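The genes described are 9 feedback inhibitors of extracellular signal-regulated kinase (ERK) signalling: the Sprouty genes Spry1, Spry2 and Spry4, the Sprouty-related genes Spred1, Spred2 and Spred3, the MAP kinase phosphatase genes Dusp4 and Dusp6, and the receptor-like gene Il17rd. They were taken by symbol from the 49997 symbols of the count tables, and all 9 were present. Their RNA was compared between proliferating iMOP cells and neurons derived from them, a line of immortalized multipotent progenitors of the mouse inner ear whose genotype is given as wild-type. The medium of the proliferating cells was DMEM/F12 with B27, carbenicillin and 20 ng/ml of basic FGF, and the neuron cultures were kept in Neurobasal with N21, L-glutamine and 1 µM K03861, which inhibits CDK2, a kinase of the cell cycle. The neuron medium is given without FGF, so the medium, the growth factor, the inhibitor and the cell state changed together and cannot be told apart. Each group had 2 libraries of total RNA depleted of ribosomal RNA, numbered as biological replicates. All 4 come from 1 cell line, and whether the replicates were separate differentiations is not stated.

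Fibroblast growth factors bind receptor tyrosine kinases and, through the adaptor Frs2 and the exchange factor Sos, switch on RAS, RAF, MEK and ERK in turn. ERK then induces the genes of its own inhibitors, so that their RNA follows the activity of the pathway with a delay. Sprouty and Spred proteins act above ERK on RAS and RAF, with Spred proteins bringing the RAS-inactivating protein neurofibromin to the membrane. Dusp6 in the cytoplasm and Dusp4 in the nucleus remove phosphate from ERK itself. In the inner ear, FGF signals set up the otic placode, and Spry2 limits them when the supporting cells of the organ of Corti form.

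Totals ran from 7446361 to 14484011 counts per library. The 18S row Rn18s-rs5 took 53.3% and 75.0% of them for proliferating 1 and 2, and 59.4% and 76.1% for neurons 1 and 2. It was left out, which left 2595578 to 3850766 counts. Levels are given as CPM, the counts without that row scaled to a common library size with TMM, edgeR's factor for differences in composition. Libraries are called by their labels. The 10 neuron markers summed to 500.5 and 1063 CPM for proliferating 1 and 2 and to 629.9 and 1120 CPM for neurons 1 and 2. The 7 proliferation markers summed to 1023 and 258.3 CPM for proliferating 1 and 2 and 1293 and 753.0 CPM for neurons 1 and 2. Both of these sums overlapped between the groups, and within each pair both were higher in the library labelled neurons. Of the 10 neuron markers, only Elavl4 and Map2 were higher there in both pairs. Between the replicate 1 libraries 6 of the 10 were lower in neurons, and between the replicate 2 libraries 3 were. Of the 7 proliferation markers, 6 were higher there in both pairs. The 8 glial markers summed to 423.3 and 366.0 CPM in proliferating libraries and 219.8 and 75.96 CPM in neuron libraries. All 8 had a count somewhere, but Mbp and Sox10 had at most 2 counts in a library. Gfap had 181 and 89 counts (proliferating 1 and 2) against 1 and 2 (neurons 1 and 2). Slc1a3 had 1124 and 357 counts against 563 and 158. Of 8 otic progenitor markers, Pax2 and Pax8 were at 0 in all 4 libraries, and the list summed to 242.1 and 338.0 CPM in proliferating and 218.8 and 100.3 CPM in neuron libraries. Mesenchyme markers summed to 24.38 to 55.81 CPM and hair cell markers to 0.262 to 29.7 CPM. The part of these cell markers in the values below was not tested. In bulk RNA, fewer cells that express a gene and less of its RNA in each cell cannot be told apart.

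Libraries with the same number are read as pair 1 and pair 2. The inhibitors had lower values in the neurons, mainly in pair 2. In that pair all 9 differences of log2 CPM (prior count of 2) were below 0, beside 46.8% of the 12683 genes tested. Their median was -3.16, against 0.07 over all genes. In pair 1, 6 of the 9 were below 0, beside 50.1% of all genes, with a median of -0.69 against -0.002. In both pairs 6 of the 9 were below 0, beside 25.6% of all genes. These 6 include Dusp4, at -0.006 in pair 1, and Il17rd, at -0.018 in pair 2, values that show no difference. The 5 genes whose neuron libraries both lay under both proliferating libraries were Spry1, Spry2, Spry4, Dusp4 and Dusp6, where 14.9% of all genes tested did so. For Dusp4 this rested on 29 counts in proliferating 1 against 28 in neurons 1, which is no difference beyond counting error. The other 4, Spred1, Spred2, Spred3 and Il17rd, overlapped between the groups. None rose or fell past the test: edgeR's quasi-likelihood test over all 4 libraries called 0 of the 9 lower at an adjusted p under 0.05, as it called 0.0% of all genes in either direction. At an unadjusted p under 0.05 there were 4 of the 9, all lower, against 2.53% of all genes. They were Spry1, Spry2, Spry4 and Dusp6, and a fit with a term for the pair gave 4 too, against 3.38%. DESeq2 called Spry2 and Dusp6 lower, beside 0.355% of all genes, and edgeR without a gene filter called Spry1, Spry2, Spry4 and Dusp6 lower, beside 0.468%. Of the glial markers, the 4 tested (Fabp7, Gfap, Slc1a3 and Cnp) were also lower in both pairs, with medians of -0.64 and -3.25. Fabp7, a fatty acid binding protein of radial glia, had 272 and 362 counts against 211 and 9, an order of libraries like that of Spry1. The part of glial cells in the inhibitors' values was not tested. All 9 genes passed the filter on low counts. Spry1, Spry4, Spred3 and Dusp6 were past its limit in both proliferating libraries but only 1 neuron library, and the other 5 were past it in all 4.

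**Figure D1:**
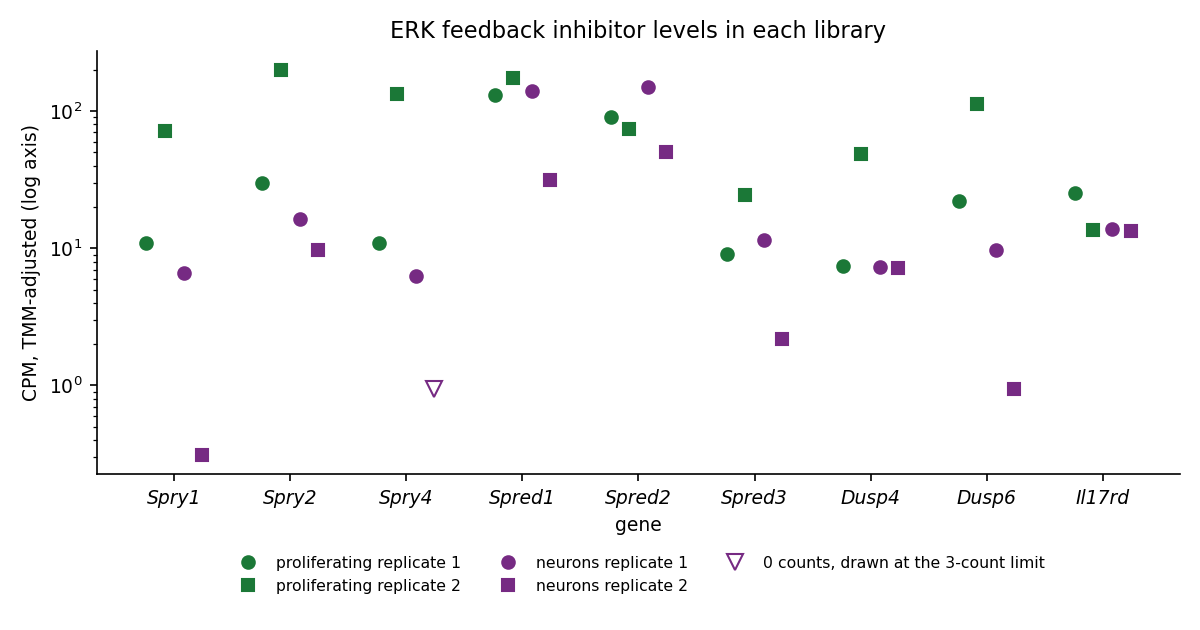
Level of each inhibitor in each library, as TMM-adjusted CPM on a log axis; green marks are proliferating and purple marks neuron libraries, circles replicate 1 and squares replicate 2. For Spry1, Spry2, Spry4, Dusp4 and Dusp6 the green square stands highest and both purple marks lie under both green ones. For Dusp4 the green circle and the purple circle are at nearly the same level (7.37 and 7.34 CPM). The open triangle is the 3-count limit for Spry4, which had 0 counts in neuron replicate 2.

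Spry2 was the most abundant Sprouty gene in every library per length of exon. Its gene lies at chr14:105891947-105896819 on the minus strand of GRCm38 (GENCODE M21), the same assembly as the mm10 named in the submitters' notes. It had 118 and 483 counts for proliferating 1 and 2 and 62 and 31 counts for neurons 1 and 2, or 30.0 and 199 CPM against 16.2 and 9.69 CPM. Proliferating replicate 2 thus stood far above the other 3 libraries, and the 2 neuron libraries were the lowest. Means were 115 ± 120 CPM for the proliferating and 13.0 ± 4.63 CPM for the neuron libraries (SD, n = 2 in either group). edgeR fitted a log2 fold change of -3.13 (SE 0.90, adjusted p 0.97). Within pair 1 it was 1.85-fold lower in neurons (95% counting interval 1.35 to 2.55), and within pair 2 20.6-fold lower (14.3 to 30.6). These intervals are exact binomial ones and cover counting error only. They treat reads as independent, and reads without molecular identifiers are not independent molecules, so the intervals can be too narrow. A single pair has no replicate check.

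Spry4 was the one inhibitor with no count in a library. Its gene, at chr18:38586247-38601415 on the minus strand, had 43 and 324 counts (proliferating 1 and 2) against 24 and 0 (neurons 1 and 2). The levels were 10.9 and 134 CPM in proliferating libraries and 6.29 CPM in neuron replicate 1. The count of 0 in neuron replicate 2 allows up to 3 counts, or 0.938 CPM. Spry4 was 1.74-fold lower in neurons in pair 1 (1.03 to 2.99). In pair 2 it was 143-fold lower when set against that limit of 3 counts. The counting interval there has a lower end of 115-fold and no upper end. Over all 4 libraries the log2 fold change was -4.46 (SE 1.57) with an edgeR adjusted p of 0.9996. The proliferating libraries differed from each other 12.2-fold (8.88 to 17.2).

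Spry1 repeated this order of libraries. It had 43 and 174 counts (proliferating 1 and 2) against 25 and 1 (neurons 1 and 2), or 10.9 and 71.8 CPM against 6.55 and 0.313 CPM. In pair 1 it was 1.67-fold lower in neurons, with a counting interval from 0.996 to 2.85 that includes no difference. In pair 2 the ratio was 229.7, with an interval of 40.7 to 9125 that reflects the single neuron count. The log2 fold change was -3.53 (SE 1.25, edgeR adjusted p 0.9996). The gene lies at chr3:37639947-37644598 on the plus strand, where 710 of its exon bases are shared with an opposite-strand model, Gm42922, and whether counting used strand is not given in the sources used here.

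Dusp6, the phosphatase that is specific for ERK, was at least 2-fold lower in neurons in both pairs. Such a difference was found for 1 of the 9 inhibitors in pair 1, against 8.26% of all genes, and for 7 of the 9 in pair 2, against 10.5%. With library size alone, without TMM, there were 3 of the 9 in pair 1 (Dusp6, Spry2 and Il17rd), against 11.3% of all genes. At least 16-fold differences were found for 4 of the 9 in pair 2 (Spry1, Spry2, Spry4 and Dusp6), against 0.323% of all genes, and for 0 in pair 1, against 0.134%. Dusp6 (chr10:99263231-99267489, plus strand) had 87 and 274 counts (proliferating 1 and 2) against 37 and 3 (neurons 1 and 2). Its levels were 22.1 and 113 CPM against 9.69 and 0.938 CPM, so both neuron libraries lay under both proliferating ones. It was 2.28-fold lower in neurons in pair 1 (1.53 to 3.45) and 121-fold lower in pair 2 (40.8 to 588). The fitted log2 fold change was -3.63 (SE 1.14, edgeR adjusted p 0.9996), and -3.48 with the replicate number as a block (adjusted p 0.58).

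Dusp4, the nuclear phosphatase of the set, had another pattern. It had 29 and 117 counts (proliferating 1 and 2) against 28 and 23 (neurons 1 and 2), or 7.37 and 48.3 CPM against 7.34 and 7.19 CPM. Proliferating replicate 2 alone was high, and the other 3 libraries were at one level. In pair 1 the ratio was 1.00 (0.577 to 1.75), and in pair 2 Dusp4 was 6.72-fold lower in neurons (4.27 to 11.0). The log2 fold change of -1.92 (SE 0.86, edgeR adjusted p 0.9996) became -0.02 without proliferating replicate 2. The gene is at chr8:34807297-34819894 on the plus strand.

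To show the sequence that precedes the genes with differences of at least 16-fold in pair 2, the 250 bases before the RefSeq start of Dusp6, Spry1 and Spry2 are given on the strand of the gene (RefSeq, build GRCm38.p6). Promoters of 7 of the 9 genes were used, and those of Spry4 and Dusp4 were not. The windows are chr10:99262981-99263230 (plus strand), chr3:37639697-37639946 (plus strand) and chr14:105896820-105897069 (minus strand). Capitals mark GGAA on either strand, the core letters of sites for ETS factors, the family that includes the ERK-induced genes Etv4 and Etv5.
Dusp6: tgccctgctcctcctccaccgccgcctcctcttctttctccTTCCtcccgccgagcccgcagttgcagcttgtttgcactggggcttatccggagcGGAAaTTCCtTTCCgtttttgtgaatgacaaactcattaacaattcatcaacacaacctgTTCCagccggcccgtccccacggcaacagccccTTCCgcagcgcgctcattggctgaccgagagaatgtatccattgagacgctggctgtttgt
Spry1: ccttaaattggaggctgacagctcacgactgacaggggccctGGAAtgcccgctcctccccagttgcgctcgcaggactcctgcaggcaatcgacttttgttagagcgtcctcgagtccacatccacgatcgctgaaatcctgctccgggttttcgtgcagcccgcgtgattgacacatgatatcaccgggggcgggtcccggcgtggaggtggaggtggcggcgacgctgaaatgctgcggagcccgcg
Spry2: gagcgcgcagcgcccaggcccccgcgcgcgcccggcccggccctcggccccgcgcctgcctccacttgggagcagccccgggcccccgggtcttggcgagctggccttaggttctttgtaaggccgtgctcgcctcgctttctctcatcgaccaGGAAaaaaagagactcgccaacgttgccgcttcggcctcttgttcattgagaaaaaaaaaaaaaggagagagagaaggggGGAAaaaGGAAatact
The window of Dusp6 held 6 matches, that of Spry1 had 1 and that of Spry2 had 3, beside a median of 3 over 32851 promoter windows of that length, of which 93.45% held at least 1. These 4 letters were searched after longer motifs had found nothing. On both strands, 0 of the 7 windows held CCGGAA (12.03% of all windows), 0 held CCGGAAGT, which contains it (2.88%), 0 held the cyclic AMP response element TGACGTCA (1.55%), 0 held the AP-1 letters TGANTCA (6.75%), and 0 held a serum response element (1.47%). These counts describe the letters of the windows and not the binding of any factor.

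The Spred genes had overlapping groups, with neuron replicate 1 above neuron replicate 2 for each of the 3. Spred1 (chr2:117121374-117182279, plus strand) had 514 and 419 counts (proliferating 1 and 2) against 538 and 101 (neurons 1 and 2), or 131 and 173 CPM against 141 and 31.6 CPM. Neuron replicate 2 was the one low library, 4.46-fold under neuron replicate 1 (3.60 to 5.58). In pair 1 the proliferating level was 0.927 times the neuron level (0.819 to 1.05), and in pair 2 it was 5.48 times that level (4.40 to 6.88). The fitted log2 fold change was -0.81 (SE 0.70, edgeR adjusted p 0.9996).

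Spred2, the inhibitor with the highest level per length in both neuron libraries, was the only one of the 9 with a fitted log2 fold change above 0. The value was 0.28 (SE 0.59, edgeR adjusted p 0.9996), and it was -0.09 on the log2(RPKM + 0.1) scale and -0.72 without neuron replicate 1. Spred2 (chr11:19924375-20024026, plus strand) had 359 and 180 counts (proliferating 1 and 2) against 574 and 162 (neurons 1 and 2), or 91.2 and 74.3 CPM against 150.4 and 50.6 CPM. The highest and the lowest library were both neuron libraries. The proliferating level was 0.607 times the neuron level in pair 1 (0.530 to 0.693) and 1.47 times in pair 2 (1.18 to 1.82). The pairs thus went opposite ways, with counting intervals on opposite sides of 1.

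Spred3 was the least abundant Spred gene. It had 36 and 59 counts (proliferating 1 and 2) against 44 and 7 (neurons 1 and 2), or 9.15 and 24.3 CPM against 11.5 and 2.19 CPM. The proliferating level was 0.793 times the neuron level in pair 1 (0.496 to 1.26), which is no difference beyond counting error, and 11.1 times in pair 2 (5.08 to 28.9). The log2 fold change was -1.26 (SE 0.86, edgeR adjusted p 0.9996). Of the exon bases of Spred3 (chr7:29158829-29170411, minus strand), 202 are shared with the opposite-strand gene Ggn, which itself had 3 to 5 counts.

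Il17rd, also known as Sef, encodes a membrane protein that inhibits the FGF to ERK pathway, and it was the one inhibitor with its high value in proliferating replicate 1. It had 99 and 33 counts (proliferating 1 and 2) against 53 and 43 (neurons 1 and 2), or 25.1 and 13.6 CPM against 13.9 and 13.4 CPM. Proliferating replicate 1 stood above the other 3 libraries, which lay within a narrow range. It was 1.81-fold lower in neurons in pair 1 (1.28 to 2.58) and 1.01-fold lower in pair 2 (0.624 to 1.63). The log2 fold change was -0.51 (SE 0.52, edgeR adjusted p 0.9996), with the gene at chr14:27038941-27107286 on the plus strand.

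**Figure D2:**
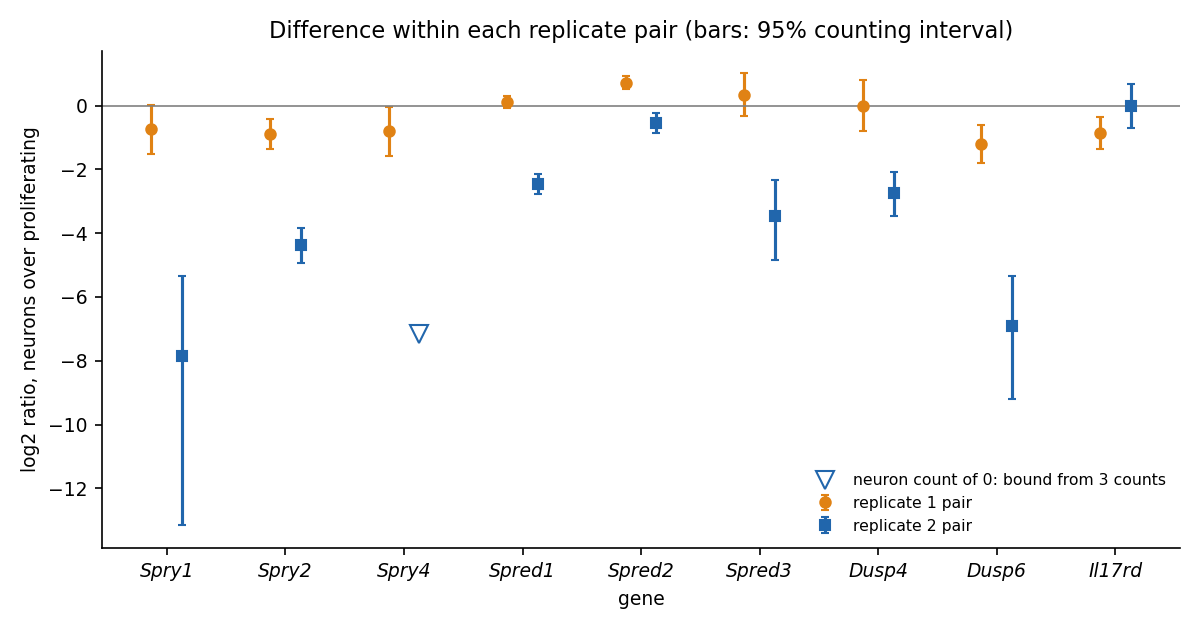
Log2 ratio of neurons over proliferating cells for each inhibitor within pair 1 (circles) and pair 2 (squares), with 95% exact binomial counting intervals; 0 is no difference. The pair 2 values of Spry1, Spry2, Spry4 and Dusp6 lie far under their pair 1 values, Il17rd has the opposite order, and the open triangle is the bound for Spry4 from 3 counts.

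The inhibitors also differed within the groups. Proliferating replicate 2 held more RNA than proliferating replicate 1 for Spry1 (6.57-fold, 4.68 to 9.40), Spry2 (6.65-fold, 5.42 to 8.20), Dusp4 (6.55-fold, 4.33 to 10.2), Dusp6 (5.12-fold, 4.0 to 6.59) and, as given above, Spry4. It held 0.541 times as much for Il17rd (0.353 to 0.810) and 0.814 times for Spred2 (0.677 to 0.977). A difference of at least 2-fold in that direction was found for 6 of the 9 genes, the sixth being Spred3, against 12.0% of all genes tested. Among the neurons, replicate 1 was at least 2-fold above replicate 2 for 6 of the 9, against 9.75% of all genes. These were the 3 Spred genes, Spry1, Spry4 and Dusp6, and both differences together were found for 4 of the 9 (Spry1, Spry4, Spred3 and Dusp6) against 0.702% of all genes. Dusp6 was 10.3-fold higher in neuron replicate 1 than in neuron replicate 2 (3.27 to 52.4), while Dusp4 differed 1.02-fold there (0.567 to 1.86). The share of the 18S row and the sums of the proliferation and neuron markers also differed between the proliferating replicates, with neuron markers at 500.5 and 1063 CPM. Tubb3, at 59.2 and 590.1 CPM, carried most of that rise. Elavl3, Elavl4, Nefl and Stmn2 were also higher in proliferating replicate 2, while Dcx, Map2, Rbfox3, Snap25 and Syt1 were lower there. Between neuron replicates 1 and 2 the glial, otic progenitor and proliferation sums fell, the direction of the 3 Spred genes, Spry1, Spry4 and Dusp6. They went from 219.8 to 75.96, from 218.8 to 100.3 and from 1293 to 753.0 CPM, while neuron markers went from 629.9 to 1120 CPM. Between proliferating replicates 1 and 2, where Spry1, Spry2, Spry4, Dusp4 and Dusp6 rose, the glial sum fell from 423.3 to 366.0 CPM. The proliferation sum fell there too, from 1023 to 258.3 CPM, while the otic progenitor sum rose from 242.1 to 338.0 CPM. The part of these in the inhibitors' differences was not tested.

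**Figure D3:**
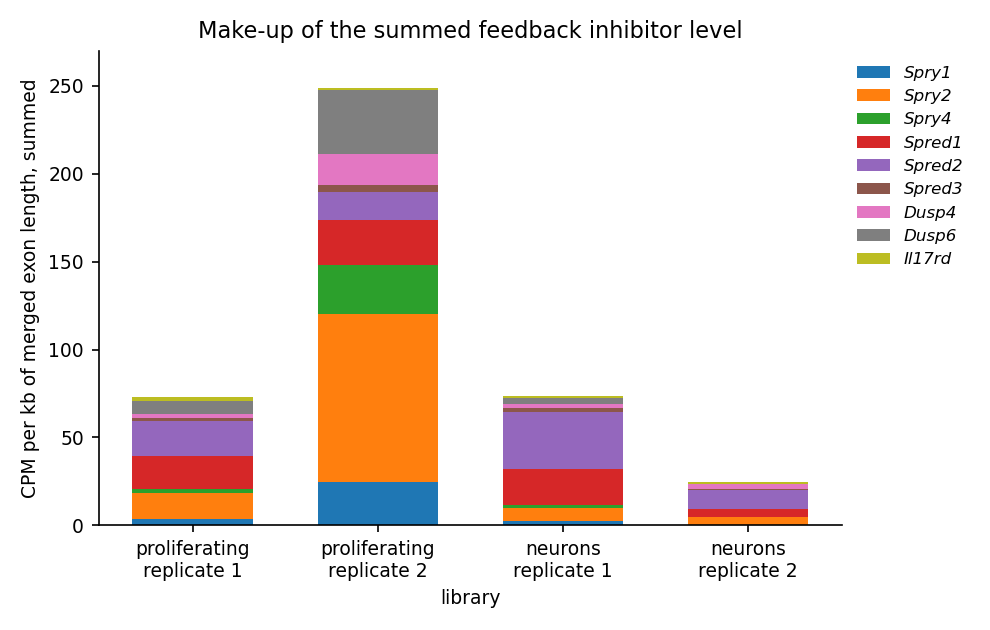
Summed level of the 9 inhibitors in each library, as CPM per kb of merged exon length (bars from 0), with 1 colour per gene. The sums are 72.9 and 249 (proliferating replicates 1 and 2) and 73.6 and 24.9 (neuron replicates 1 and 2), and Spry2 goes from 14.4 to 95.5 between the proliferating replicates.

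Levels of different genes were set side by side only per kb of merged GENCODE exon length. On that scale Spred2 and Spred1 led in proliferating replicate 1 with 19.8 and 19.2 CPM per kb, counts too close to order them, and Spry2 followed with 14.4. In proliferating replicate 2 the order was another: Spry2 led with 95.5 CPM per kb, followed by Dusp6 with 36.1 and Spry4 with 28.1, and Spred2 was seventh with 16.1. Both neuron libraries had Spred2 first, with 32.6 and 11.0 CPM per kb, and Spred1 second, with 20.8 and 4.65. Spry2 was at 4.64 in neuron replicate 2, so the second and the third place there cannot be told apart. Il17rd was last in proliferating replicate 2 and neuron replicate 1, at 1.24 and 1.26 CPM per kb. Spry4 was at 1.32 in neuron replicate 1, so Il17rd and Spry4 cannot be ordered there. Summed over the family, the 3 Sprouty genes stood at 20.4 and 148 CPM per kb for proliferating 1 and 2 and 11.4 and 4.75 for neurons 1 and 2. The 3 Spred genes stood at 40.5 and 45.5 in proliferating libraries and 55.2 and 15.97 in neuron libraries. The summed Sprouty level was thus under the summed Spred level in 3 of the 4 libraries, and above it in proliferating replicate 2.

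The other genes of the pathway were read from lists by role. Among genes that ERK is known to induce, 9 of 10 were tested, and 7 of these had both neuron libraries under both proliferating libraries, against the 14.9% of all genes given above. Their median log2 fold change was -1.66, with -1.51 in pair 1 and -2.17 in pair 2. Egr1, a zinc finger factor, had 407 and 215 counts (proliferating 1 and 2) against 8 and 7 (neurons 1 and 2), and was 49.3-fold (24.8 to 115) and 40.5-fold (19.3 to 102) lower in neurons in the 2 pairs. Its log2 fold change was -5.46 (SE 0.56), with an edgeR adjusted p of 0.13 and of 0.023 with the replicate number as a block, where 0.0237% of all genes were called lower. The other genes called there were Gfap, of the glial list, and Slc6a11, a GABA transporter named after its value was seen. Fos, an AP-1 subunit, was 6.01-fold (3.73 to 10.2) and 7.36-fold (3.25 to 19.5) lower, from 124 and 39 counts to 20 and 7. Junb and Ier2 differed by -1.55 and -1.51 in pair 1 and by -1.21 and -1.71 in pair 2 (log2 CPM). Fos, Junb and Ier2 did not pass the edgeR test after adjustment with the gene filter, and without it Fos did (adjusted p 0.032). DESeq2 called Egr1 alone of the list, and edgeR without a gene filter called Egr1, Fos and Etv4.

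The ETS factor genes, which FGF signals induce in many tissues, varied among themselves. Etv4 had 48 and 39 counts (proliferating 1 and 2) against 10 and 2 (neurons 1 and 2), and was lower in both pairs (4.66-fold, 2.33 to 10.3, and 25.7-fold, 6.66 to 220.1). Etv5 had 169 and 480 counts against 213 and 7, so that, as for Spred1, proliferating replicate 1 was not above neuron replicate 1 while pair 2 differed 90.5-fold (43.6 to 226). Etv1 had 145 and 73 counts against 259 and 20, and its log2 fold change of 0.15 was -0.56 with the replicate block. Myc, which was used to immortalize this line, had 14011 and 7018 counts (proliferating 1 and 2) against 4762 and 6623 (neurons 1 and 2), and whether reads of a transgene are among them is not stated. It was 2.85-fold (2.76 to 2.95) lower in pair 1 and 1.40-fold (1.35 to 1.45) lower in pair 2.

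**Figure D4:**
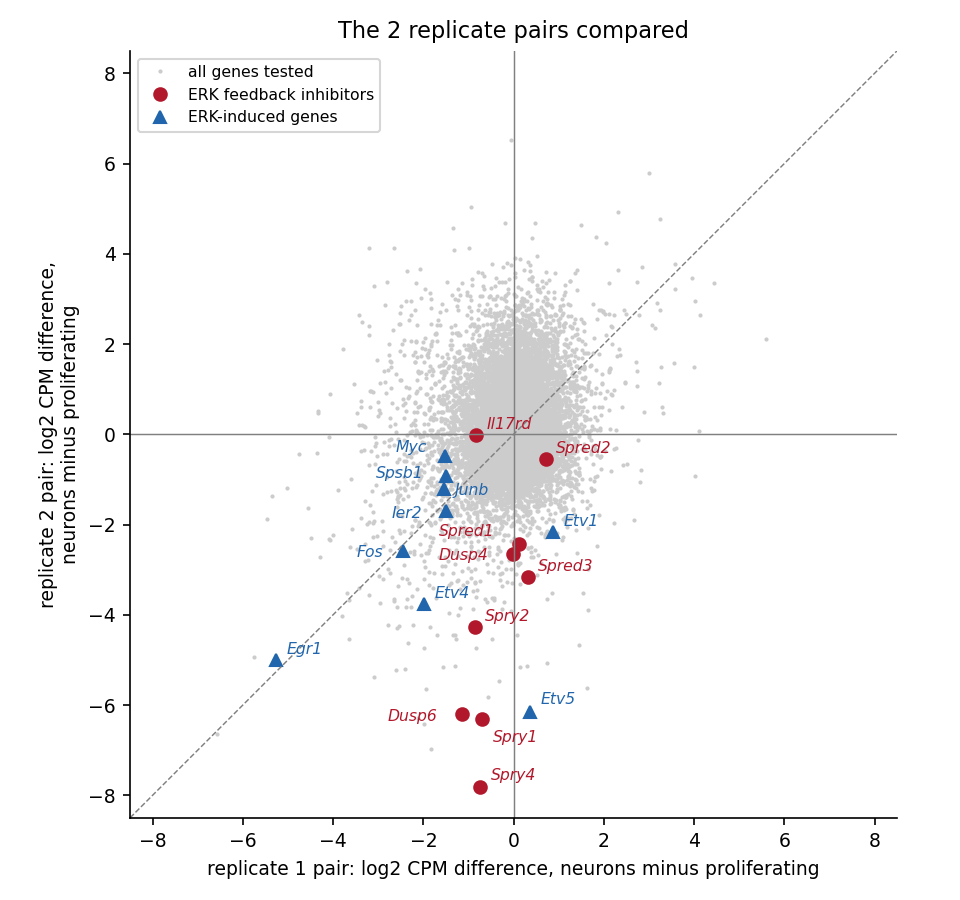
Difference of log2 CPM (prior count of 2), neurons minus proliferating cells, in pair 1 (x axis) and pair 2 (y axis); grey dots are the 12683 genes tested, red circles the inhibitors and blue triangles the 9 tested ERK-induced genes. Egr1, Fos, Ier2 and Junb lie near the dashed line of equal difference, while Spry1, Spry2, Spry4 and Dusp6 lie far under it, at small differences in pair 1.

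Genes upstream of the inhibitors had medians nearer to 0 than the -1.92 of the inhibitors. Of 12 receptor and adaptor genes, 10 were tested, with a median log2 fold change of 0.006, 5 below 0 and 5 above. Fgfr3, which encodes an FGF receptor, had lower values in either pair, with 109 and 193 counts (proliferating 1 and 2) against 15 and 18 (neurons 1 and 2). It was 7.05-fold lower in pair 1 (4.09 to 13.0) and 14.2-fold in pair 2 (8.72 to 24.4), with a log2 fold change of -3.48 (SE 0.69, edgeR adjusted p 0.78). As for some inhibitors the call depended on the fit, and Fgfr3 was called lower by DESeq2 (adjusted p 0.0016), by edgeR without a gene filter, and by edgeR without proliferating replicate 1 (adjusted p 0.011). Fgfr1 overlapped between the groups, with 68.1 and 116 CPM in proliferating and 76.8 and 44.4 CPM in neuron libraries. The 13 genes of the cascade from RAS to ERK had a median of -0.28, with 7 below 0 and 6 above. Mapk3, the gene of ERK1, overlapped between the groups, at 27.2 and 20.6 CPM against 13.1 and 25.3 CPM.

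Other brakes on the pathway did not share one direction. Of 8 other MAP kinase phosphatase genes, 6 were tested, with a median log2 fold change of -0.95, 5 below 0 and 1 above. Dusp7, the gene of a cytoplasmic ERK phosphatase like Dusp6, had 18.3 and 36.3 CPM in proliferating libraries and 13.9 and 9.38 CPM in neuron libraries (log2 fold change -1.22, SE 0.56, edgeR adjusted p 0.9996). Dusp16, whose product acts on the kinases JNK and p38, was the one with higher values in both neuron libraries, at 33.5 and 20.2 CPM against 56.1 and 37.5 CPM. Of 14 further brakes and partners 12 were tested, with a median of -0.10, 6 below 0 and 6 above. Nf1, the gene of neurofibromin, which Spred proteins recruit, had 208 and 100.3 CPM in proliferating libraries and 224 and 179.7 CPM in neuron libraries. Sulf2, a sulfatase that trims the heparan sulfate needed for FGF binding, had 150 and 158 counts against 7 and 43. edgeR on all 4 libraries with the gene filter, with or without the replicate block, called 0 genes in the lists of receptors, cascade, phosphatases and further brakes. Without the filter it called Fgfr3 and Sulf2 (adjusted p 0.00027 and 0.0090), both lower in neurons.

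The mean profile of the inhibitors had near matches among other genes. Each gene's log2 CPM was centred over the 4 libraries, and its distance to the mean of the 9 inhibitors was taken over these 4 values, among 7287 other genes with a mean of at least 50 counts. The 5 nearest were Arhgap31 (distance 0.183), Ehd2 (0.363), Ptn (0.487), Pcsk6 (0.602) and Dtx4 (0.679). Each of them was nearer to the mean than any inhibitor was, but they were picked as the nearest of the 7287 and the inhibitors were not. Among the inhibitors Spred3 came closest (0.682) and Spry4 was farthest (2.91). Spred2 (2.51) and Il17rd (2.66) were also far from the mean. Arhgap31 had 170 and 320 counts (proliferating 1 and 2) against 137 and 27 (neurons 1 and 2). With 4 libraries such a likeness is a description of these libraries.

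**Figure D5:**
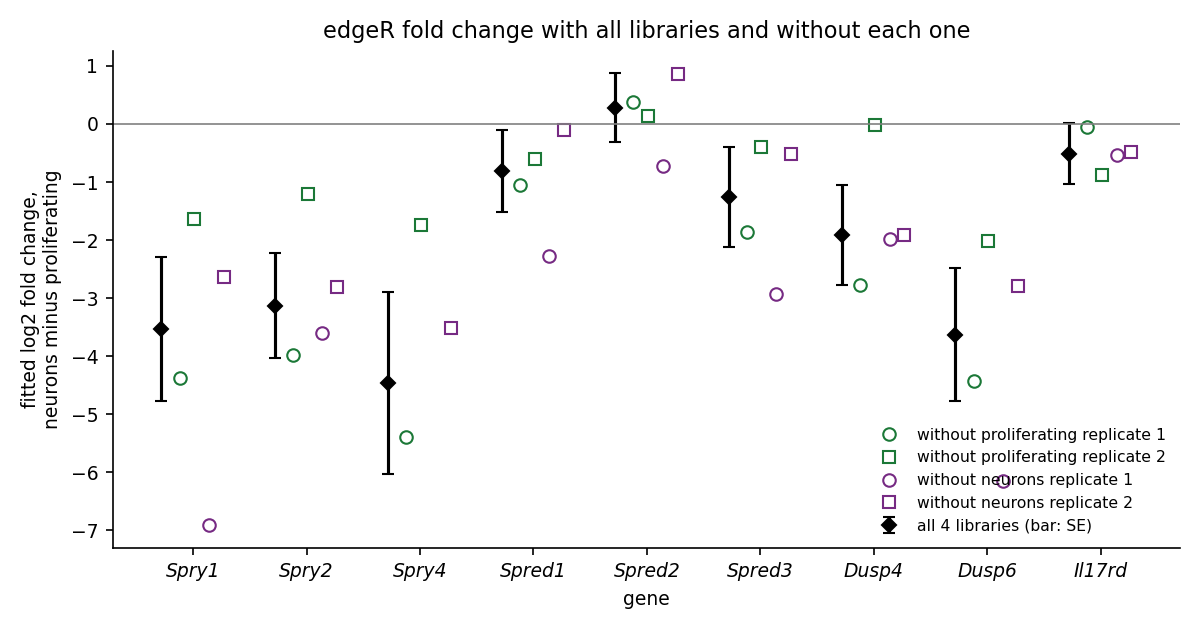
edgeR log2 fold change of each inhibitor with all 4 libraries (black diamonds, bars are SE) and without each library in turn (open marks); the Spry4 value without neuron replicate 1 is left out because the remaining neuron library had 0 counts. The open green squares, without proliferating replicate 2, lie nearest to 0 for Spry1, Spry2, Spry4, Dusp4 and Dusp6.

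Which inhibitors were called depended on single libraries. With 2 libraries against 2, the smallest two-sided p of an exact permutation test on 1 gene is 0.333, and none was run. Without proliferating replicate 1, edgeR called Spry2, Spry4, Dusp4 and Dusp6 lower, where 0.639% of all genes were called lower. Without neuron replicate 1, it called Spry1, Spry4 and Dusp6, where 0.134% of all genes were. Without proliferating replicate 2 or without neuron replicate 2, it called 0 of the 9, beside 0.0867% and 0.0315% of all genes. In these fits 1 group has a single library, which is taken to vary like the other group. Without proliferating replicate 2 the log2 fold changes were -1.63 for Spry1, -1.20 for Spry2, -1.75 for Spry4 and -2.02 for Dusp6, so the sizes printed above for these genes depend on that library. Without neuron replicate 2 they were -2.64, -2.81, -3.51 and -2.79 in the same order.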

How the data were processed

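The data were 2 stranded RNA libraries of proliferating iMOP cells and 2 of iMOP-derived neurons. Intervals are given for single pairs. The p-values set each group difference against the spread between these samples only, which the fits estimated with information shared across genes. The authors deposited raw counts per gene symbol and RPKM values for each library. The submitters' processing notes name HISAT2, SAMtools, featureCounts, DESeq2, deepTools 3.4.3 and the build mm10. The annotation, the use of strand and the treatment of reads with several matches are not given in the sources used here. The length behind the deposited RPKM values, recovered from counts and RPKM, differed from the merged exon length (43762 against 4619 bases for Spred2), so levels of different genes were compared on the counts per kb of GENCODE M21 exon length.

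The members and lists were chosen with earlier results of these data known. Groups were compared with edgeR 4.0.16 (R 4.3.3) on counts without Rn18s-rs5: TMM, filterByExpr (minimum count 10, minimum total 15), glmQLFit and glmQLFTest with group as the only term, two-sided, with Benjamini-Hochberg adjustment over 12683 genes and a threshold of 0.05. Since set 2 stands in the title of each replicate 2 library, replicate numbers were taken to mark a shared set. Deviations of same-numbered libraries from their group means correlated across genes with r = 0.31. Alternatives were the replicate block, other scalings and filters, DESeq2 1.42.0, limma-trend (limma 3.58.1) on log2(RPKM + 1) and log2(RPKM + 0.1), and leaving out each library. The edgeR script was tested on simulated counts. All inhibitors, any gene of the lists and the 5 genes of nearest profile could be named, and 1 gene of the lists is not reported here. Intervals, distances and motifs were computed with Python 3.11.15, numpy 2.4.6, pandas 2.3.3 and scipy 1.17.1.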

Additional observations from a re-analysis of the deposited data

How the results depend on the processing

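With all 4 libraries and the group as the only term, edgeR called 0 genes and 0 of the 9 inhibitors, and it did so too with RLE factors, with library size alone, with a mean count of at least 50 and with the 18S row kept in. There were 448 genes at an unadjusted p under 0.05. DESeq2 called 57 genes (12 higher, 45 lower), 2 of them inhibitors, and left 492 genes without an adjusted p. edgeR on all genes with a count, unfiltered, called 162 (41 higher, 121 lower), 4 of them inhibitors (Spry1, Spry2, Spry4 and Dusp6), in a fit that took all dispersions from the trend. For both RPKM settings the 18S row was dropped, but the deposited values were not rescaled after that. The replicate block gave 3 genes, log2(RPKM + 1) gave 1 and log2(RPKM + 0.1) gave 2, all lower in neurons and none an inhibitor. The cause was not tested. Leaving out 1 library gave 7 to 112 called genes and 0 to 4 called inhibitors, 4 without proliferating replicate 1.

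The median log2 fold change of the inhibitors was -1.92, -1.41 with the replicate block, -0.96 on log2(RPKM + 1), which understates low genes, -3.11 over the 7 with a mean count of at least 50, and -2.93 to -0.88 with 1 library left out. The replicate block changed no call of an inhibitor. Library size alone moved the median of all genes from 0.02 to -0.09. It raised the share of all genes below 0 in pair 1 from 50.1% to 63.5%. With it, 6 in place of 5 inhibitors separated the groups. The sixth was Spred1, whose ratio in pair 1 turned from 0.927 to 1.06. The share of all genes that separated the groups under library size alone was not counted. Library size alone also raised the inhibitors at least 2-fold lower in pair 1 from 1 to 3, and the share of all genes from 8.26% to 11.3%. These counts under library size alone and the 4-letter motif were chosen after seeing the data. Signs turned for small values: Spred2 (-0.088 on log2(RPKM + 0.1), and -0.72 to 0.86 with 1 library left out), Etv1 (-0.56 with the replicate block, -0.19 on log2(RPKM + 0.1), -2.42 to 1.02), Mapk3 (-0.87 to 0.073) and Nf1 (-0.045 to 0.95). Depth limits Spry1, Spry4 and Dusp6 in neuron replicate 2, where they had 0 to 3 counts.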
